A study of Homo sapiens with 4 samples.

Results

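The 8 genes described here encode chemokines that attract lymphocytes and monocytes: the CXCR3 ligands CXCL9, CXCL10 and CXCL11, the CCR2 ligands CCL2 and CCL7, the T cell attractant CCL5, the CCR6 ligand CCL20 and the CX3CR1 ligand CX3CL1. They were chosen by name, all 8 were found among the 26475 gene symbols of the count tables, and all 8 had at least 10 reads in at least 1 library, as had 15204 symbols in all. The list was drawn up with results of these same libraries in view, so the levels of its members are given as a description and no test is made on them. RNA came from mammospheres, floating spheres enriched for stem-like cells, of the established cell line MDA-MB-468, which models basal-like triple-negative breast cancer (TNBC). By the study's methods the cells had received Cas9 with mCherry and a doxycycline-inducible guide vector with green fluorescent protein by lentivirus and were sorted for both colours. The 4 conditions, with 1 library each and no replicate, were control cells without treatment (CTL, labelled wild type), control cells with doxycycline (CTL+dox, wild type), cells carrying the inducible TCOF1 gRNA2 without treatment (gRNA2, wild type) and the same cells with doxycycline (gRNA2+dox, labelled as TCOF1 knockout). All were grown in mammosphere medium and RNA from several plates was pooled per condition, so that neither the spread between cultures nor another guide enters these data. Where 4 values follow each other they stand in the order CTL, CTL+dox, gRNA2 and gRNA2+dox.

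Chemokines are small secreted proteins that bind G protein-coupled receptors on white blood cells and direct their migration along a gradient. CXCL9, CXCL10 and CXCL11 are classical targets of interferon-gamma and recruit activated T cells and natural killer cells, and CCL2 and CCL7 are monocyte chemoattractants. CCL5 attracts T cells and monocytes, and CCL20 attracts cells bearing CCR6, among them Th17 cells and immature dendritic cells. CX3CL1 (fractalkine) differs from the rest in being made as a membrane-bound mucin-like protein that is released by the proteases ADAM10 and ADAM17. Tumour cells themselves can make these factors, and in cultures without white blood cells the transcripts report the tumour cell side only.

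By the RefSeq annotation of GRCh38.p14, CXCL9 (chromosome 4, 76001275 to 76007509), CXCL10 (76021118 to 76023497) and CXCL11 (76033682 to 76036070) lie next to each other, with 13.6 kb between the first pair and 10.2 kb between the second. CCL2 (chromosome 17, 34255285 to 34257203) and CCL7 (34270221 to 34272242) are 13.0 kb apart. CCL5 lies farther along chromosome 17, from 35871491 to 35880360, CCL20 on chromosome 2 from 227813842 to 227817556, and CX3CL1 on chromosome 16 from 57372490 to 57385044. RefSeq promoter sequences were at hand for 5 of the 8 genes, and all 5 are shown. None was at hand for CCL2, CCL5 and CX3CL1, so their promoters could not be examined. Of these 5 genes, 4 were higher in gRNA2+dox and the fifth, CCL20, was not. Each line gives the 250 bases before the transcript start, 5′ to 3′ on the strand of the gene, and capitals mark every match to 5 motifs searched on both strands.
CXCL9 (chr4:76007510-76007759, reverse strand): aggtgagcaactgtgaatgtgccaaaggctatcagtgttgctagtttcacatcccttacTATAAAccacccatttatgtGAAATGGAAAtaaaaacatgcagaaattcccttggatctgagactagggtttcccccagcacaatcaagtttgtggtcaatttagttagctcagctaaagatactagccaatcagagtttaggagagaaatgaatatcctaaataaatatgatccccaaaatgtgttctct
CXCL10 (chr4:76023498-76023747, reverse strand): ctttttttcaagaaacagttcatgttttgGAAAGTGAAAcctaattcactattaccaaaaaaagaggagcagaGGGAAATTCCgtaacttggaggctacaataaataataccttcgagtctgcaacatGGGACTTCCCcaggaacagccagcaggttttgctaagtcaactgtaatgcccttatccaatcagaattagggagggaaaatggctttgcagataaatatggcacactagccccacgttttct
CXCL11 (chr4:76036071-76036320, reverse strand): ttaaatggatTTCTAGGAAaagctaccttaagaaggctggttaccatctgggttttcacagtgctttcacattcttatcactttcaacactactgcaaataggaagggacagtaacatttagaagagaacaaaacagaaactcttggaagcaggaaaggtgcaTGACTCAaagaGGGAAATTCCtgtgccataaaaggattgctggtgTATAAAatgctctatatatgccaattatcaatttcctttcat
CCL7 (chr17:34269971-34270220, forward strand): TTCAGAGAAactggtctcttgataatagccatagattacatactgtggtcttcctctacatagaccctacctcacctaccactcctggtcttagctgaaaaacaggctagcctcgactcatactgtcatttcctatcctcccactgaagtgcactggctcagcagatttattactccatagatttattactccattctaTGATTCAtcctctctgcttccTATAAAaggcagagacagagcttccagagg
CCL20 (chr2:227813592-227813841, forward strand): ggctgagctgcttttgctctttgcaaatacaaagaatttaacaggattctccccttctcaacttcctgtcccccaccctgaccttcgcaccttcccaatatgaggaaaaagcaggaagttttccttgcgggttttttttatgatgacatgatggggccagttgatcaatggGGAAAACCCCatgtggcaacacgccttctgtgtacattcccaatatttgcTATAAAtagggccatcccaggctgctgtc

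The interferon-stimulated response element (ISRE), searched as GAAA, then NN, then GAAA, was matched in CXCL9 from 171 to 162 bases before the start (GAAATGGAAA) and in CXCL10 from 221 to 212 (GAAAGTGAAA). Of all 35116 promoters of the same length, 3.02% held it. The gamma-activated site (GAS), searched as TTCNNNGAA, was matched in CXCL11 from 240 to 232 (TTCTAGGAA) and in CCL7 from 250 to 242 (TTCAGAGAA), and in 6.57% of all promoters. The NF-kappa-B consensus was matched at 2 places in CXCL10, from 177 to 168 (GGGAAATTCC) and from 122 to 113 (GGGACTTCCC). CXCL11 held the first of these strings from 76 to 67, CCL20 held a match on the opposite strand from 79 to 70, and 9.96% of all promoters held the consensus. The AP-1 site, searched as TGANTCA, was matched in CXCL11 and CCL7 and in 6.57% of all promoters. TATAAA was found from 42 to 37 bases before the start in CXCL11, from 30 to 25 in CCL7, from 29 to 24 in CCL20 and from 191 to 186 in CXCL9, and in 10.7% of all promoters. No match overlapped another, and the matches are letters in a window and not shown to be bound. A TATA box is a core promoter element, whereas ISRE, GAS, NF-kappa-B and AP-1 sites are sequences through which interferon, cytokine and stress signals are known to act.

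Counts on genes summed to 19960644 to 26322847 reads per library, and they were scaled to CPM, counts relative to 1000000 counts in the library, with TMM factors of 0.985 to 1.01. A floor of 3 reads, used as a bound where a library had 0 reads, corresponded to 0.114 to 0.148 CPM. TCOF1, the target of the guide, had 1019, 754, 1318 and 437 reads, so that its transcript was lowest in the library labelled as knockout but was also lower in CTL+dox than in CTL. Epithelial markers were abundant in all 4 libraries (KRT5 had at least 78551 reads), whereas of 16 blood cell markers the T cell gene CD3D and the natural killer cell gene NKG7 were among those with 0 reads in every library and PTPRC (CD45) had at most 2. The summed level of the 16 markers was 157 to 181 CPM, nearly all of it on CD68, CSF1R and CD14, and it was 178 CPM in gRNA2+dox against 181 in gRNA2. The 9 fibroblast and endothelial markers summed to 18.0 to 22.6 CPM, with 0 reads on CDH5 in every library. Each log2 ratio is given with its exact 95% interval (Clopper-Pearson), computed from the reads in both libraries. These intervals cover counting error only, and compare libraries and not conditions. A gene was called higher or lower where its log2 ratio was past 1 and the quantile of the ratio at 1% (99% for lower genes) under counting error was past 0.5, cutoffs of the form used in the study.

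The CXCR3 ligands CXCL9, CXCL10 and CXCL11 each had their highest level in gRNA2+dox. CXCL10, an attractant of activated T cells, had 24 reads in the CTL library, 45 with doxycycline, 27 in untreated gRNA2 cells and 206 in gRNA2+dox, or 1.19, 2.0, 1.03 and 9.44 CPM. The gRNA2+dox library thus stood above the other 3, and among these CTL+dox was above CTL, by an interval that barely cleared 0 (0.01 to 1.53 on the log2 scale). The level of CXCL10 in gRNA2+dox was 9.20-fold that in gRNA2 (interval 6.14 to 14.3), 4.72-fold that in CTL+dox (3.40 to 6.67) and 7.96-fold that in CTL (5.20 to 12.7). In bulk RNA of this kind, more cells making a transcript and more transcript per cell cannot be told apart.

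CXCL9, the ligand most tied to interferon-gamma, had 28, 11, 31 and 128 reads, or 1.38, 0.489, 1.18 and 5.86 CPM. The gRNA2+dox library was again highest, but here CTL+dox was the lowest, below both untreated libraries. The level of CXCL9 in gRNA2+dox was 4.98-fold that in gRNA2 (3.34 to 7.63), 12.0-fold that in CTL+dox (6.48 to 24.6) and 4.24-fold that in CTL (2.80 to 6.63). CXCL11, which has the highest affinity for CXCR3, had 28, 32, 43 and 79 reads, or 1.38, 1.42, 1.63 and 3.62 CPM. Its 3 lower libraries did not differ beyond counting error from their neighbours in the order, and gRNA2+dox stood above them at 2.22-fold the level in gRNA2 (1.51 to 3.29). The quantile behind the call of CXCL11 against gRNA2 was 0.52, just past the cutoff, and with scaling by total counts alone CXCL11 was no longer called there.

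The monocyte attractants CCL2 and CCL7 differed in level but were both highest in gRNA2+dox. CCL2 had 66, 76, 85 and 195 reads, or 3.26, 3.38, 3.23 and 8.93 CPM. The 3 lower libraries were within counting error of each other, and gRNA2+dox was 2.77-fold above gRNA2 (2.13 to 3.61), 2.64-fold above CTL+dox (2.02 to 3.49) and 2.74-fold above CTL (2.06 to 3.68). CCL7 was close to the limit of detection, with 0, 1, 2 and 12 reads. Its level in gRNA2+dox was 3.71-fold the 3-read floor of the CTL library, and the interval of its ratio to CTL began at 2.58. Against gRNA2 the ratio was 7.24 (1.61 to 66.6) and against CTL+dox 12.4 (1.83 to 529), so the direction was seen in all 3 comparisons while the intervals of its size were wide. With a prior count of 5 in place of 0.5 its log2 ratio was 1.38 against gRNA2 and 1.54 against CTL+dox. Of its neighbours on chromosome 17, the monocyte attractant CCL8 had 3, 2, 1 and 13 reads, and CCL11 and CCL13 had 0 reads in every library.

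The remaining members behaved otherwise. CX3CL1 was by far the most abundant, with 1518, 1489, 2022 and 1480 reads, or 75.0, 66.2, 76.8 and 67.8 CPM. The libraries with doxycycline were slightly lower in both cell populations, by a log2 ratio of -0.18 in the gRNA2 cells (-0.28 to -0.08) and -0.18 in the CTL cells (-0.28 to -0.08). Depth was therefore sufficient to show differences of this size in CX3CL1, and against CTL+dox its ratio in gRNA2+dox was 0.03 (-0.07 to 0.14). CCL5 had 16, 12, 19 and 19 reads, and CCL20 had 10, 10, 16 and 6. No pair of neighbouring libraries in the order of levels differed beyond counting error for either gene. For CCL5 a ratio of gRNA2+dox to gRNA2 from 0.604 to 2.41 lay within the interval, and for CCL20 from 0.145 to 1.22, so that differences within these ranges were not detectable at this depth. The ratio of CCL2, 2.77, lay above both intervals.

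By the cutoffs, CXCL9, CXCL10, CXCL11, CCL2 and CCL7 were called higher in gRNA2+dox whichever of the other libraries it was set against, 5 of the 8 members in each comparison, and 0 of the 8 were called lower. CCL7 passed the filter of 10 reads only through gRNA2+dox, the library in which it was high. Over all tested genes the higher call was made for 0.316% over gRNA2, 0.487% over CTL+dox, 0.441% over CTL and 0.171% over all 3 libraries, and the lower call for 0.27%, 1.03% and 0.895%. Since the members were picked with these contrasts known, nothing is read from their share. The median log2 ratio of the 8 members in gRNA2+dox was 1.30 over gRNA2, 1.37 over CTL+dox and 1.41 over CTL, beside -0.0021, -0.00052 and -0.0030 for all tested genes. The last median is the same with CCL7 at its floor. The level was highest in gRNA2+dox for 6 of the 8 members, CCL5 among them without separation from its neighbour, beside 24.8% of all tested genes.

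For CTL+dox against CTL and for gRNA2 against CTL, 0 of the 8 members were called in either direction. For CTL+dox against CTL, where 0.0855% of all tested genes were called higher and 0.184% lower, the log2 ratio was 0.74 for CXCL10 and -1.46 for CXCL9 (-2.66 to -0.45). The ratios of CXCL9 and CXCL10 thus had opposite signs in the control cells, neither past the cutoffs. For gRNA2 against CTL, where 0.145% were called higher and 0.447% lower, the log2 ratios of the members other than CCL7 ran from -0.23 for CXCL9 to 0.29 for CCL20, and each interval included 0. CCL7 was at or under the floor in these 3 libraries and is given no ratio between them. Without it the median of the other 7 members was -0.15 for CTL+dox against CTL and -0.01 for gRNA2 against CTL (-0.05 and 0.01 with its fitted value).

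The design crosses guide and doxycycline, so that the doxycycline ratio within the gRNA2 cells was set beside that within the CTL cells. For CXCL9 the log2 ratios were 2.29 and -1.46, a difference of 3.75, for which counting alone gives a standard error (SE) of 0.58. For CXCL10 they were 3.17 and 0.74, a difference of 2.43 (SE 0.47). CCL2 gave 1.46 and 0.05, a difference of 1.41 (SE 0.31), and CXCL11 1.14 and 0.04, a difference of 1.10 (SE 0.46). No difference is given for CCL7, which was at or under the floor in both CTL libraries. For CX3CL1 the difference was 0.00 (SE 0.07), which bounds it between -0.14 and 0.14. The difference was 0.81 (SE 0.71) for CCL5 and -0.94 (SE 0.92) for CCL20, neither of which can be told from 0 at these read counts. TCOF1 itself gave -1.32 and -0.59, a difference of -0.73 (SE 0.11). In gRNA2+dox against CTL+dox its log2 ratio was -0.74 (-0.92 to -0.57), which was not past the cutoffs.

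The split of the reads among the chemokine genes differed between libraries in the same way. These are shares of reads and not of transcript molecules. They are not corrected for transcript length, which runs from 741 bases for CCL2 to 3285 for CX3CL1. CX3CL1 held 89.8% of the reads on the 8 genes in CTL (interval 88.3 to 91.2), 88.8% in CTL+dox and 90.1% in gRNA2, but 69.6% in gRNA2+dox (67.6 to 71.6). The other 7 members together had 172, 187, 223 and 645 reads. Their summed level was 8.50, 8.31, 8.47 and 29.5 CPM, so that it was nearly equal in 3 libraries and 3.49-fold higher in the last than in gRNA2 (2.99 to 4.08). The 3 CXCR3 ligands summed to 80, 88, 101 and 413 reads, and to 3.95, 3.91, 3.84 and 18.9 CPM. This sum was 4.93-fold higher in gRNA2+dox than in gRNA2 (3.96 to 6.19), and CTL+dox was at 0.989 times CTL (0.723 to 1.36). Among the CXCR3 ligands CXCL10 took 26.7% of the reads in gRNA2 (18.4 to 36.5) and 49.9% in gRNA2+dox (45.0 to 54.8), while CXCL11 took 42.6% (32.8 to 52.8) and 19.1% (15.4 to 23.3). CXCL9 held 30.7% and 31.0% in these libraries. In CTL+dox CXCL10 also held the largest share, 51.1% (40.2 to 61.9), and CXCL9 the smallest, 12.5% (6.41 to 21.3), at a sum close to that of CTL.

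To compare the genes with each other, levels were divided by the length of the canonical transcript. CX3CL1 ranked first in every library, at 20.1 to 23.4 CPM per kb, and CCL2 came next, at 4.40, 4.56, 4.36 and 12.1 CPM per kb. CXCL10 did not differ beyond counting error from CXCL11 in CTL (1.01 against 0.936 CPM per kb) and stood apart from it in gRNA2+dox, at 8.03 CPM per kb (6.97 to 9.20) against 2.45 for CXCL11 (1.94 to 3.05). CXCL11 and CXCL9 (2.12 CPM per kb) did not differ beyond counting error in gRNA2+dox, and neither did CCL7 (0.679) from CCL5 (0.670) or CCL5 from CCL20 (0.330), whereas CXCL9 stood above CCL7. In CTL, CXCL10, CXCL11, CCL5 (0.609), CCL20 (0.593) and CXCL9 (0.501) formed a run in which no neighbours differed beyond counting error. Against the length of all annotated exons, CX3CL1 was at 11.1 to 12.9 CPM per kb and still first, and CCL2 was at 4.62 CPM per kb in gRNA2+dox, below CXCL10, so the order of these genes there depends on the transcript model.

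Genes outside the members with the most similar pattern were sought among 13850 genes with at least 10 reads in every library, by the Euclidean distance of the mean-centred log2 CPM over the 4 libraries. Nearest to CXCL9 were the interferon-inducible guanylate-binding proteins GBP5 (distance 0.92) and GBP4 (0.94), and then SAMD11 (1.11). GBP5 had 152, 132, 306 and 829 reads. Nearest to CXCL10 were IL24, a cytokine of the IL-10 family (0.83, with 17, 34, 34 and 119 reads), LOC731424 (1.13) and IFIT3, an interferon-induced antiviral protein (1.19). BATF2, an interferon-inducible transcription factor with 186, 210, 281 and 564 reads, was nearest both to CXCL11 (0.10) and to CCL2 (0.20). Next to CXCL11 came COL6A2, a collagen VI chain, and TRIM15 (0.18 each), and next to CCL2 came AGXT, a peroxisomal aminotransferase (0.23), and LOC731424 (0.25). Some of these genes had few reads: SAMD11 had 19, 11, 17 and 44, and LOC731424 14, 18, 19 and 52. COL6A2 had 12, 14, 20 and 31 reads and AGXT 10, 14, 13 and 30. Between members the distance was 0.25 for CXCL11 and CCL2, 1.36 for CXCL10 and CCL2 and 1.84 for CXCL9 and CXCL10. The nearest genes were picked as the closest of 13850 and the member pairs were not, so these distances are not directly comparable. CX3CL1 was most like ROCK1, PPP1R9B and SLC29A4 (0.01 each) and CCL5 like FAHD2CP, TACR2 and ACRC (0.06 to 0.08). Of the genes beside the CXCR3 ligands, none was called in gRNA2+dox against gRNA2. ART3, whose span holds CXCL10 and CXCL11, had 129, 166, 119 and 131 reads, and SDAD1 and NUP54 differed between gRNA2+dox and gRNA2 by log2 ratios of -0.13 and 0.16. Each of the 32 member values was equal in the unstranded column and in the sum of the stranded columns.

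The levels of 10 listed receptors for these chemokines summed to 20.9 to 26.6 CPM. Of these 10 receptors, 5 had at least 10 reads in at least 1 library and none of these 5 was called in any comparison. CX3CR1, the receptor of CX3CL1, had 100, 130, 138 and 99 reads, and ACKR2, a scavenging receptor for inflammatory CC chemokines, had 290, 350, 322 and 308. CCR2, which binds CCL2 and CCL7, had 34, 37, 21 and 26 reads. CXCR3 had 5, 8, 0 and 0 reads, below the filter. The enzymes that release or trim chemokines, ADAM10, ADAM17, CTSS and DPP4, were all expressed, and 0 of 4 were called. Their log2 ratios of gRNA2+dox to gRNA2 ran from 0.03 for ADAM10 to 0.34 for CTSS.

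Upstream genes of the chemokine response were then examined as lists. Of 9 genes of the interferon-gamma pathway, all 9 had a ratio above 0 in gRNA2+dox against gRNA2, where 49.6% of all tested genes did, and 0 of 9 were called. Against CTL+dox 7 of 9 were above 0 (49.9% of all tested genes) and against CTL 8 of 9 (49.4%), with 1 of 9 called in each. The list median in gRNA2+dox was 0.31 over gRNA2, 0.19 over CTL+dox and 0.38 over CTL. IRF1, an interferon-inducible transcription factor, had 1026, 1030, 1597 and 2059 reads, and its ratio was 0.64 against gRNA2 and 1.04 against CTL+dox, where it was called. The receptor chains IFNGR1 and IFNGR2 and the kinases JAK1 and JAK2 had ratios from 0.02 to 0.23 against gRNA2. IFNG itself had 0, 1, 0 and 1 reads and IFNB1 2, 2, 3 and 1. Of 12 inducing cytokines 6 passed the filter and 0 were called, the most abundant being IL1B with 5891, 7436, 8362 and 8672 reads, and TNF had 69, 58, 89 and 54.

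Of 11 genes of the NF-kappa-B pathway, 0 were called in any of the 5 comparisons. Their median log2 ratio in gRNA2+dox was 0.07 over gRNA2, 0.21 over CTL+dox and 0.16 over CTL. A ratio above 0 was seen for 7 of 11 against gRNA2 (49.6% of all tested genes). It was seen for 11 of 11 against CTL+dox (49.9%) and for 9 of 11 against CTL (49.4%). RELA, an NF-kappa-B subunit, had 4998, 5125, 7500 and 6054 reads, and RELB had 1263, 1213, 1489 and 1532. TNFAIP3 and NFKBIA, feedback inhibitors that NF-kappa-B induces, had ratios of -0.14 and 0.07 against gRNA2 and of 0.12 and 0.22 against CTL+dox. The chemokines of neutrophils were in part similar to the members: of 8 listed, CXCL5 was called higher in gRNA2+dox against all 3 libraries, with 51, 37, 32 and 136 reads, and CXCL2 against CTL+dox with 92, 74, 127 and 177. CXCL8 and PPBP, the most abundant of them, had log2 ratios of 0.37 and 0.35 against gRNA2 and -0.05 and -0.79 against CTL+dox. Of 28 other lymphocyte and monocyte chemokines 7 passed the filter and 7 had 0 reads in all libraries. CCL8 alone was called, against gRNA2 (interval of the log2 ratio 1.24 to 9.38) and CTL+dox (0.60 to 5.93) and not against CTL. These calls rest on the few reads given above. Like CCL7, CCL8 passed the filter only through gRNA2+dox, the library in which it was high, so no share is read from its call. The abundant members of this list, CXCL17, CXCL16 and CCL22, had ratios of 0.04, 0.08 and -0.21 against gRNA2.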

How the data were processed

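RNA of 4 mammosphere cultures of MDA-MB-468 was sequenced by the study. The authors trimmed adaptors with fastp, aligned the reads with STAR to hg38 by the submitters' processing notes, and deposited the read counts that STAR wrote for each gene symbol, which are not normalized. The gene annotation is not given in the sources used here. The unstranded column was used. Rows for unmapped, multimapping, ambiguous and unannotated reads (19.0% to 20.3% of each library) were left out of library sizes.

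From the counts, TMM factors were computed with edgeR 4.0.16 in R 4.3.3 over 15204 genes with at least 10 reads in at least 1 library. Log2 ratios used a prior count of 0.5, in proportion to library size. Intervals and quantiles were computed with Python 3.11.15 and scipy 1.17.1. They were tested on simulated counts with Poisson error only and with changes placed only in genes of higher counts. That test therefore does not cover variation between cultures or changes in genes with few reads. GFOLD, which the study used, was not run. With 1 library per condition no test across replicates was possible and no p-value is given. Canonical transcript lengths came from GENCODE 44 (GRCh37), positions and promoters from RefSeq (GRCh38.p14).

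The members, gene lists and comparisons were chosen with earlier results of these data known. Named genes were TCOF1, the members, the most abundant or most different genes of each list, and the 3 genes most like each member, and other genes of the lists were named after their values were seen. Some genes of the lists are not reported here by name. Positional neighbours were taken from RefSeq. The alternatives tried were size factors of DESeq2 1.42.0, scaling by totals, no filter, at least 50 reads, a prior count of 5, no quantile, a quantile at 5%, thinning to the smallest total, and the stranded columns.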

Additional observations from a re-analysis of the deposited data

Results flagged for a closer look

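For 2 members the ratio of the library with doxycycline to that without had opposite signs in the gRNA2 and CTL cells. CXCL9 had a log2 ratio of 2.29 in gRNA2 cells but -1.46 in CTL cells, where it had 28 reads without and 11 with doxycycline. CCL5 had 0.26 in gRNA2 cells but -0.55 in CTL cells, on 12 to 19 reads in each library, and both of its intervals included 0. With 1 library per condition these differences were not tested across replicates.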

How the results depend on the processing

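No paired analysis was possible because replicates are lacking (1 library per condition), which also means that none could be left out in turn. The 5 members called higher in gRNA2+dox against each other library were called under DESeq2 size factors, no filter, a prior count of 5, the quantile at 5% and the summed stranded columns. CXCL11 against gRNA2 was the exception under total counts only (log2 ratio 1.11). With at least 50 reads CCL5, CCL7 and CCL20 are not tested, and after thinning CCL7 is not, so that 4 members are called in each. With the log2 ratio alone, 1 member (CCL20) was lower in gRNA2+dox than in gRNA2. By the same rule 1 was higher (CCL7) and 1 lower (CXCL9) in CTL+dox than in CTL. In gRNA2 against CTL, 1 (CCL7) was higher. For CCL7 these rest on 1 read in CTL+dox and 2 in gRNA2 against 0 in CTL. All are at or under the floor, so no difference is read from them. With the quantile at 5%, CXCL9, 1 member, was lower with doxycycline in CTL cells. Levels per length by all annotated exons were added after seeing the data. Depth limits CCL5, CCL7 and CCL20, with at most 19 reads in a library, and variation between cultures was not measured.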

Other observations

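CXCL13, which attracts B cells through CXCR5, had 0, 1, 2 and 6 reads in CTL, CTL+dox, gRNA2 and gRNA2+dox, too few to pass the filter. CCL28, a chemokine of mucosal epithelium, had 234, 282, 370 and 279 reads, and CCL26, an attractant of eosinophils, had 59, 59, 60 and 38. Neither was called in any comparison. XCL1 had 2 to 5 reads in every library, and CCL3 and CCL4 had 0.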
